A study of Arabidopsis thaliana with 10 samples.

Results

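CCA1, LHY and the REVEILLE genes RVE1 to RVE8 encode single-MYB transcription factors of the Arabidopsis thaliana circadian clock. They were taken by their locus identifiers (AT2G46830 for CCA1, AT1G01060 for LHY, AT5G17300, AT5G37260, AT1G01520, AT5G02840, AT4G01280, AT5G52660, AT1G18330 and AT3G09600 for RVE1 to RVE8 in order) and are 10 of the 33557 genes in the deposited tables. All 10 passed the filter on low values, which 19957 genes passed (1 FPKM or more in at least 2 libraries). RNA from whole seedlings was sequenced in 10 libraries, 2 biological replicates of each of 5 genotypes. The genotypes were cry2-1, labelled as a mutant of the blue-light receptor gene CRY2, the overexpressors CRY2oe and UBP13oe, ubp12ubp13, labelled for the ubiquitin-specific protease genes UBP12 and UBP13, and the wild type (WT). All were in the Columbia (Col-0) ecotype, were 4 days old and had grown under constant blue light (fluence rate 1 µmol m-2 s-1). The promoters of the overexpression constructs, the alleles of ubp12ubp13, the number of lines per genotype and the hour of harvest are not given in the sources used here. With a single harvest, a difference in level and a difference in clock phase cannot be told apart, and neither can fewer cells of a type and less RNA per cell.

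The plant clock is a set of transcription factors that act on each other's genes over the day. CCA1 and LHY accumulate around dawn and repress genes expressed later, among them TOC1, the other pseudo-response regulator (PRR) genes and the genes of the evening complex (ELF3, ELF4 and LUX), and PRR proteins in turn repress CCA1 and LHY. RVE8, with RVE4 and RVE6, binds the same promoter element, the evening element, but activates evening genes together with LNK coactivators. RVE1 links the clock to auxin synthesis through YUC8, RVE2 is also known as CIR1 and RVE7 as EPR1. UBP12 and UBP13 are known to act with the clock proteins GI and ZTL.

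Promoter sequences are shown for the 3 genes with the largest rises in any genotype (CCA1, LHY and RVE8, all in the libraries labelled ubp12ubp13) and for RVE7, which fell in UBP13oe. Each is the 300 bases before the RefSeq gene start in TAIR10.1, written 5′ to 3′ on the strand of the gene, with motif matches in capitals.
CCA1, chr2:19245291-19245590, plus strand: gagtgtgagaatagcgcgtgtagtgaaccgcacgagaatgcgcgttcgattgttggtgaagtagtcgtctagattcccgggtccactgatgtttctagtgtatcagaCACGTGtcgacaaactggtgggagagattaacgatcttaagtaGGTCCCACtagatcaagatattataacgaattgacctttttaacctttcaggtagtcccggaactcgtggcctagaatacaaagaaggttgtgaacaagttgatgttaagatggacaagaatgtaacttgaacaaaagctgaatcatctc
LHY, chr1:37872-38171, minus strand: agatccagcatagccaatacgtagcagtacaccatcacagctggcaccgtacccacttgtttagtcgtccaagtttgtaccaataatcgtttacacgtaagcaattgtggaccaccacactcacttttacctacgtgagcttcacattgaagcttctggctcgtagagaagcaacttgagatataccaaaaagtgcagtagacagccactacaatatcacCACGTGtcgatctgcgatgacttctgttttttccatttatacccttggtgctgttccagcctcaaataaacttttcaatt
RVE8, chr3:2945939-2946238, plus strand: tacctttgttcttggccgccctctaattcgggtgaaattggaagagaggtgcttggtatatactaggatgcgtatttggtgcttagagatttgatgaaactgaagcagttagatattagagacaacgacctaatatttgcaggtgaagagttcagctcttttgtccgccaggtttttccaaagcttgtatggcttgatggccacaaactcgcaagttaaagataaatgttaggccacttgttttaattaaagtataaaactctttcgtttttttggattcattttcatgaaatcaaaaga
RVE7, chr1:6308244-6308543, minus strand: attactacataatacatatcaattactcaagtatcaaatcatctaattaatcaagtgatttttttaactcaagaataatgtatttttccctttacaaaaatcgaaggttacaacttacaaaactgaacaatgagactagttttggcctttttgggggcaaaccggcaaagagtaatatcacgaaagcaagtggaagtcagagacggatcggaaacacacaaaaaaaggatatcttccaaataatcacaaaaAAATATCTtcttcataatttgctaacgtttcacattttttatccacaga
The motifs were searched on both strands in the promoters of all 10 genes, and no match overlapped another. The capitals in CCA1 mark a G-box (CACGTG, 193 to 188 bases before the start) and a site for TCP factors (GGNCCCAC, 150 to 143 bases before the start), the kind of site that the repressor CHE is known to bind. In LHY they mark a G-box 80 to 75 bases before the start. In RVE7 they mark an evening element (AAATATCT) 49 to 42 bases before the start. RVE8 had none of the motifs searched in this window. A G-box was found in 6 of the 10 genes (CCA1, LHY, RVE1, RVE2, RVE3 and RVE5), against 7.09% of all 27443 promoters of that length. The TCP site was present in CCA1 alone of the 10, against 1.18% of all promoters, and the evening element in RVE7 alone, against 5.64%. The CCA1-binding site AAAAATCT was found in RVE2 and RVE6, against 7.94% of promoters. Of the LUX-binding sites, GATACG was found in RVE4, against 5.51% of promoters, and GATTCG in none of the 10, against 9.34%.

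Values are FPKM, which relate the fragments of a gene to its length and to the size of the library, so levels can be compared between genes per length. The libraries held an estimated 15.6 to 30.9 M fragments, and 3 fragments on a transcript of 1 kb correspond to 0.0972 to 0.193 FPKM, a floor that covers counting error only. CRY2 was listed at 0 and 0.0187 FPKM in cry2-1, at 3923 and 3808 FPKM in CRY2oe and at 110 and 120.0 FPKM in WT. UBP13 had 69.0 and 66.1 FPKM in UBP13oe, 24.2 and 23.6 FPKM in ubp12ubp13 and 27.1 and 28.3 FPKM in WT. UBP12 had 397 FPKM in the first ubp12ubp13 library and a failed estimate in the second, against 35.0 and 34.8 FPKM in WT, so the transcript levels do not show a loss of either gene, and those libraries are called the libraries labelled ubp12ubp13. Summed FPKM of 4 green-tissue markers spanned 8128 to 18507, of 6 root markers 223 to 981 and of 4 seed markers 2.27 to 16.0, and no marker was at 0 in any library. The seed marker CRU3 did not pass the filter on low values and was not tested.

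The 10 genes spanned a wide range of levels. RVE4 was the highest in every genotype by its mean and RVE2 the second, while RVE3 was the lowest. In WT, RVE4 had 233 and 261 FPKM, RVE2 167 and 193 FPKM and RVE3 1.61 and 1.78 FPKM. CCA1, LHY and RVE8 had nearly the same mean level in WT (17.9, 17.5 and 17.6 FPKM). In the libraries labelled ubp12ubp13 they again lay close together, at means of 50.2, 47.8 and 46.4 FPKM. The ratio between the replicates of a genotype had a median of 1.05 and was 1.2 or less in 45 of 50 cases. It was widest for RVE3 in CRY2oe (2.22 and 1.096 FPKM). Coordinates of the genes in the deposited tables (TAIR10) are chr2:19245672-19248914 for CCA1, chr1:33379-37871 for LHY, chr5:5690227-5692902 for RVE1, chr5:14751344-14753088 for RVE2 and chr1:190596-192139 for RVE3. They are chr5:648704-651972 for RVE4, chr4:535211-537322 for RVE5, chr5:21359059-21362160 for RVE6, chr1:6305966-6308013 for RVE7 and chr3:2946406-2948995 for RVE8. No other locus in the tables overlaps them.

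**Figure D1:**
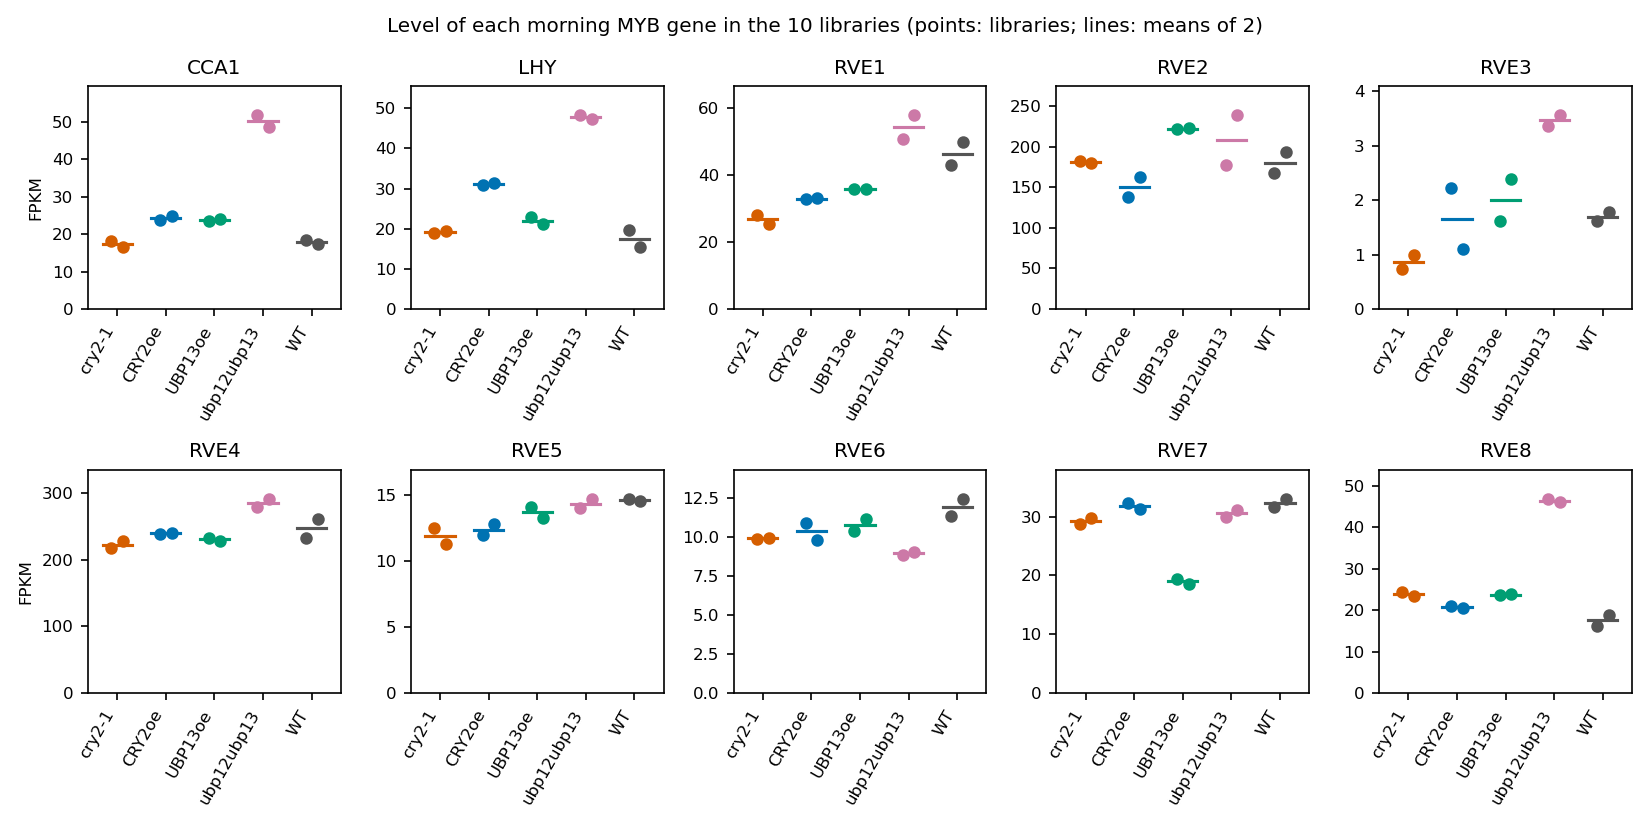
FPKM of each of the 10 genes on a linear axis that starts at 0, by genotype, with a point per library and a line at the mean of 2 libraries. CCA1, LHY and RVE8 in the libraries labelled ubp12ubp13 lie at 46.0 FPKM or more, above all other libraries of these genes, and RVE7 lies at 19.4 FPKM or less in UBP13oe alone.

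Each genotype was compared with WT by limma on log2(FPKM + 1), a scale that understates the change of low genes, with a call at an adjusted p under 0.05 over all genes tested. The 4 comparisons share the same 2 WT libraries. Of the 40 tests of the 10 genes, 21 were called, against 42.6% of the tests of all genes. RVE8 was called higher than WT in all 4 genotypes, RVE2 in none, and the other 8 genes in at least 1 comparison. Genes of the plastid and mitochondrial genomes held 8.83% and 11.4% of the summed FPKM in WT and 9.22% and 9.75% in UBP13oe. They held 17.2% and 17.8% in cry2-1, 18.2% and 18.1% in CRY2oe and 16.4% and 15.7% in ubp12ubp13. FPKM are shares of a library, and rescaling the libraries by the median of ratios moved the median change of all genes by 0.12 in cry2-1 and 0.13 in UBP13oe on the log2 scale, and by 0.05 in CRY2oe and 0.06 in ubp12ubp13. Rescaled values are given where a call or direction of a member differs. They are by the median of ratios unless the nuclear total, a second way of rescaling, is named.

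**Figure D2:**
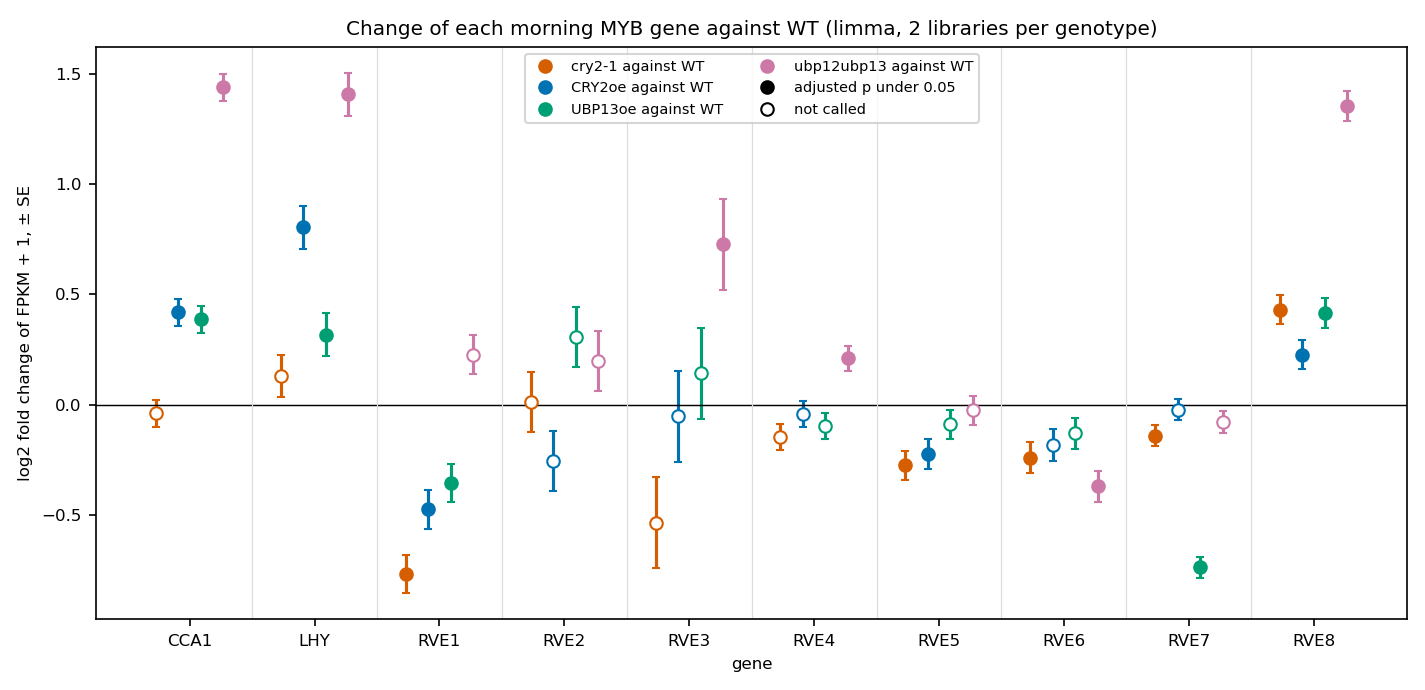
Log2 fold change of FPKM + 1 against WT (vertical axis) for each of the 10 genes and 4 genotypes, with bars of ± 1 SE from limma. Filled points passed the threshold. CCA1, LHY and RVE8 stand above 1.3 in ubp12ubp13, and RVE1 and RVE7 hold the lowest called values, -0.77 in cry2-1 and -0.74 in UBP13oe.

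In the libraries labelled ubp12ubp13, the dawn repressors CCA1 and LHY and the activator RVE8 rose together, by 2.56- to 2.71-fold on the FPKM + 1 scale. CCA1 had 51.8 and 48.6 FPKM in ubp12ubp13, against 18.5 and 17.3 FPKM in WT. It was 2.71-fold higher (log2 1.44 ± 0.06 SE, limma adjusted p = 9.971e-07). LHY had 48.3 and 47.3 FPKM in ubp12ubp13, against 19.7 and 15.4 FPKM in WT. Its change was 2.65-fold (log2 1.41 ± 0.10, limma adjusted p = 9.447e-06). For both genes the genotypes did not overlap, and every ubp12ubp13 library was above every library of all other genotypes. RVE8 had 46.8 and 46.0 FPKM in ubp12ubp13, against 16.2 and 18.9 FPKM in WT. It was 2.56-fold higher (log2 1.35 ± 0.07, limma adjusted p = 1.948e-06), with no overlap between the genotypes. These changes lay above those of 98.4%, 98.3% and 98.0% of all genes tested. The sum of CCA1 and LHY was 100.1 and 95.9 FPKM in ubp12ubp13, against 38.1 and 32.7 FPKM in WT, or 14.1% and 12.2% against 6.86% and 5.30% of the sum of the 10 genes.

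The other RVE genes changed less in these libraries, and in both directions. RVE3, the least abundant member and a relative of RVE8, had 3.36 and 3.56 FPKM in ubp12ubp13, against 1.61 and 1.78 FPKM in WT, a log2 change of 0.73 ± 0.21 (limma adjusted p = 0.0164). RVE4 had 279 and 291 FPKM in ubp12ubp13, against 233 and 261 FPKM in WT, a log2 change of 0.21 ± 0.06 (limma adjusted p = 0.0156). Neither gene's libraries overlapped those of WT. RVE6, which acts with RVE8 in Arabidopsis, fell to 8.88 and 9.07 FPKM in ubp12ubp13, against 11.4 and 12.4 FPKM in WT (log2 -0.37 ± 0.07, limma adjusted p = 0.00252). RVE6 thus moved in the opposite direction to RVE8, and the ratio of RVE8 to RVE6 was 5.27 and 5.07 in ubp12ubp13, against 1.43 and 1.52 in WT. RVE1, RVE2, RVE5 and RVE7 were not called. RVE1 had 50.8 and 57.9 FPKM in ubp12ubp13 and 42.9 and 49.8 FPKM in WT (log2 0.23, 95% interval 0.03 to 0.43, limma adjusted p = 0.0532). RVE2 differed widely between the ubp12ubp13 libraries, at 178 and 239 FPKM.

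In all, 6 of the 10 genes were called in ubp12ubp13, near the share of all genes that were (56.8%). Of these, 5 were higher, against 34.6% of all genes, and 1 was lower, against 22.2%. The median log2 change of the 10 members, called or not, was 0.22, against 0.09 for all genes. Rescaled, 4 were higher, against 29.3% of all genes, and 2 lower, against 27.1%: the RVE4 call was lost (log2 0.13, limma adjusted p = 0.0773) and RVE7 was called lower (log2 -0.15, limma adjusted p = 0.0279). The RVE3 call was lost without WT replicate 1 (limma adjusted p = 0.0651) and without ubp12ubp13 replicate 1 (0.0512) or 2 (0.0686), and the RVE4 call without WT replicate 1 (0.0764) or ubp12ubp13 replicate 2 (0.0805). Without ubp12ubp13 replicate 1, RVE2 was at a log2 change of 0.41 and called higher (limma adjusted p = 0.0184), and RVE1 passed without that library or without WT replicate 2 (limma adjusted p = 0.0289 and 0.0174). Summed green-tissue markers were at 18507 and 17513 FPKM in ubp12ubp13, against 11153 and 10465 FPKM in WT (4 of 4 called higher, 3 of 4 rescaled). Root markers summed to 223 and 241 FPKM in ubp12ubp13, against 477 and 486 FPKM in WT (2 of 6 higher and 4 lower). Seed markers summed to 8.04 and 16.0 FPKM in ubp12ubp13, against 15.0 and 12.4 FPKM in WT (1 of 3 tested lower). The part of these markers in the changes of the 10 genes was not tested.

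In CRY2oe, LHY rose more than CCA1. LHY had 31.0 and 31.3 FPKM in CRY2oe, against 19.7 and 15.4 FPKM in WT. It was 1.75-fold higher (log2 0.80 ± 0.10, limma adjusted p = 0.0015). CCA1 had 23.7 and 24.8 FPKM in CRY2oe, against 18.5 and 17.3 FPKM in WT. Its change was 1.34-fold (log2 0.42 ± 0.06, limma adjusted p = 0.00294). Neither gene's libraries overlapped those of WT, and the ratio of CCA1 to LHY was 0.763 and 0.792 in CRY2oe, against 0.937 and 1.13 in WT. The ratio was 0.851 or more in every library outside CRY2oe, and the difference between the changes of these genes was not tested.

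RVE1, the auxin-linked member, fell to 32.7 and 33.2 FPKM in CRY2oe, against 42.9 and 49.8 FPKM in WT (log2 -0.48 ± 0.09, limma adjusted p = 0.00685). RVE8 had 20.9 and 20.5 FPKM in CRY2oe, against 16.2 and 18.9 FPKM in WT (log2 0.23 ± 0.07, limma adjusted p = 0.0403). RVE5 had 11.9 and 12.8 FPKM in CRY2oe, against 14.7 and 14.5 FPKM in WT (log2 -0.22 ± 0.07, limma adjusted p = 0.0416). The libraries of CRY2oe and WT did not overlap for these 3 genes. RVE2, RVE3, RVE4, RVE6 and RVE7 were not called, at log2 changes of -0.26 to -0.02. For RVE2 the 95% interval of the change was -0.57 to 0.05, and for RVE3 it was -0.53 to 0.42.

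Of the 10 genes, 5 were called in CRY2oe, against 26.2% of all genes. These were 3 that were higher, against 16.5% of all genes, and 2 that were lower, against 9.63%. Rescaled, 2 were higher, against 11.4% of all genes, and 3 lower, against 14.3%, as RVE8 was no longer called (limma adjusted p = 0.0899) and RVE6 was (log2 -0.24, limma adjusted p = 0.0323). The RVE8 call was lost without any single library other than WT replicate 2 (9 of 10, limma adjusted p up to 0.153), and the RVE5 call without either library of WT, CRY2oe or UBP13oe (6 of 10, up to 0.196). Summed green-tissue markers were at 12877 and 12577 FPKM in CRY2oe, against 11153 and 10465 FPKM in WT (2 of 4 higher, 0 rescaled), and root markers at 262 and 291 FPKM against 477 and 486 FPKM (1 of 6 higher and 3 lower). Seed markers summed to 6.17 and 3.58 FPKM in CRY2oe, against 15.0 and 12.4 FPKM in WT (2 of 3 tested lower). Their part in the changes was not tested.

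In UBP13oe, RVE7 had its lowest level of any genotype, while CCA1, LHY and RVE8 were higher than in WT. RVE7, also known as EPR1, fell to 19.4 and 18.6 FPKM in UBP13oe, against 31.7 and 33.0 FPKM in WT. Its log2 change was -0.74 ± 0.05 (0.60-fold, limma adjusted p = 5.743e-05), and 1.57% of all genes had a lower one. The other 8 libraries all lay above both UBP13oe libraries, at 28.7 to 33.0 FPKM. RVE7 is 99.7% identical over 1690 bp to a stretch at AT3G10113 and AT3G10110, and AT3G10113 was listed at 0 to 0.0895 FPKM, so its level is uncertain if fragments were divided between these loci.

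CCA1 had 23.4 and 24.0 FPKM in UBP13oe, against 18.5 and 17.3 FPKM in WT (log2 0.39 ± 0.06, limma adjusted p = 0.00174). RVE8 had 23.5 and 23.9 FPKM in UBP13oe, against 16.2 and 18.9 FPKM in WT (log2 0.41 ± 0.07, limma adjusted p = 0.00192). LHY had 22.8 and 21.1 FPKM in UBP13oe, against 19.7 and 15.4 FPKM in WT (log2 0.32 ± 0.10, limma adjusted p = 0.0293). UBP13oe and WT did not overlap for any of the 3, but the LHY call was lost after rescaling (log2 0.17, limma adjusted p = 0.236). RVE1 fell to 35.9 and 35.8 FPKM in UBP13oe, against 42.9 and 49.8 FPKM in WT (log2 -0.36 ± 0.09, limma adjusted p = 0.0118). RVE2 had 222 and 223 FPKM in UBP13oe, above both WT libraries (167 and 193 FPKM), but was not called (log2 0.31, 95% interval -0.0046 to 0.62, limma adjusted p = 0.0997). It was called without either ubp12ubp13 library (limma adjusted p = 0.0289).

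In UBP13oe 5 of the 10 genes were called, near the share of all genes that were (43.9%). Of these, 3 were higher, against 35.2% of all genes, and 2 lower, against 8.74%. Rescaled, 2 were higher, against 18.8% of all genes, and 5 lower, against 18.0%, with RVE4, RVE5 and RVE6 called at log2 changes of -0.25, -0.23 and -0.27. RVE4 also passed without WT replicate 1 (limma adjusted p = 0.0314). The LHY call was lost without WT replicate 2 (log2 0.15, limma adjusted p = 0.101) and without UBP13oe replicate 1 (0.141) or 2 (0.0604), and the RVE1 call without WT replicate 2 (log2 -0.25, limma adjusted p = 0.0642) or UBP13oe replicate 2 (0.0562). Summed markers were at 11174 and 10868 FPKM for green tissue in UBP13oe, against 11153 and 10465 FPKM in WT (1 of 4 higher and 1 lower, 0 and 3 rescaled). Root markers summed to 620 and 582 FPKM in UBP13oe, against 477 and 486 FPKM in WT (2 of 6 higher, and 2 higher and 1 lower rescaled). Seed markers summed to 3.08 and 2.27 FPKM in UBP13oe, against 15.0 and 12.4 FPKM in WT (3 of 3 tested lower). Their part in the changes was not tested.

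In cry2-1, RVE1 showed its lowest level and RVE8 was higher than in WT, while CCA1 and LHY were not called. RVE1 fell to 28.2 and 25.3 FPKM in cry2-1, against 42.9 and 49.8 FPKM in WT (0.59-fold, log2 -0.77 ± 0.09, limma adjusted p = 0.000309). No library of another genotype was as low. RVE8 had 24.5 and 23.5 FPKM in cry2-1, against 16.2 and 18.9 FPKM in WT (log2 0.43 ± 0.07, limma adjusted p = 0.00143). CCA1 had 18.2 and 16.6 FPKM in cry2-1 and 18.5 and 17.3 FPKM in WT, and the libraries overlapped (log2 -0.04, 95% interval -0.18 to 0.10). LHY had 18.8 and 19.5 FPKM in cry2-1 and 19.7 and 15.4 FPKM in WT, also overlapping (log2 0.13, 95% interval -0.09 to 0.35). Without WT replicate 1, LHY was called higher (log2 0.30, limma adjusted p = 0.00889), and without WT replicate 2 its change was -0.04.

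RVE5, RVE6 and RVE7 had smaller called changes. RVE5 had 12.5 and 11.3 FPKM in cry2-1, against 14.7 and 14.5 FPKM in WT (log2 -0.28 ± 0.07, limma adjusted p = 0.0112). RVE6 had 9.86 and 9.96 FPKM in cry2-1, against 11.4 and 12.4 FPKM in WT (log2 -0.24 ± 0.07, limma adjusted p = 0.0261). RVE7 had 28.7 and 29.7 FPKM in cry2-1, against 31.7 and 33.0 FPKM in WT (log2 -0.14 ± 0.05, limma adjusted p = 0.0444). All 3 were below both WT libraries in both cry2-1 libraries. RVE3, at 0.732 and 0.994 FPKM in cry2-1 against 1.61 and 1.78 FPKM in WT, was not called (log2 -0.54 ± 0.21, limma adjusted p = 0.0666).

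In total 5 of the 10 genes were called in cry2-1, near the share of all genes that were (43.6%). A single gene was higher, against 31.7% of all genes, and 4 were lower, against 11.8%. After rescaling 1 was higher, against 17.1% of all genes, and 6 were lower, against 19.9%, with RVE3 (limma adjusted p = 0.0454) and RVE4 (log2 -0.29, limma adjusted p = 0.00502) added. The RVE7 call was lost without any of the 10 libraries in turn (limma adjusted p of 0.0513 to 0.197). The RVE6 call was lost without WT replicate 2 (0.128) or cry2-1 replicate 1 (0.103) or 2 (0.0835), and the RVE5 call without cry2-1 replicate 2 (0.0747), all limma adjusted p. RVE3 passed without either CRY2oe library (limma adjusted p = 0.0252 and 0.0243) and RVE4 without WT replicate 1 (0.0123). Root markers summed to 981 and 958 FPKM in cry2-1, against 477 and 486 FPKM in WT (3 of 6 higher), and green-tissue markers to 8128 and 8422 FPKM against 11153 and 10465 FPKM (3 of 4 lower, 4 rescaled). Seed markers summed to 6.20 and 6.62 FPKM in cry2-1, against 15.0 and 12.4 FPKM in WT (1 of 3 tested lower). Their part in the changes was not tested.

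**Figure D3:**
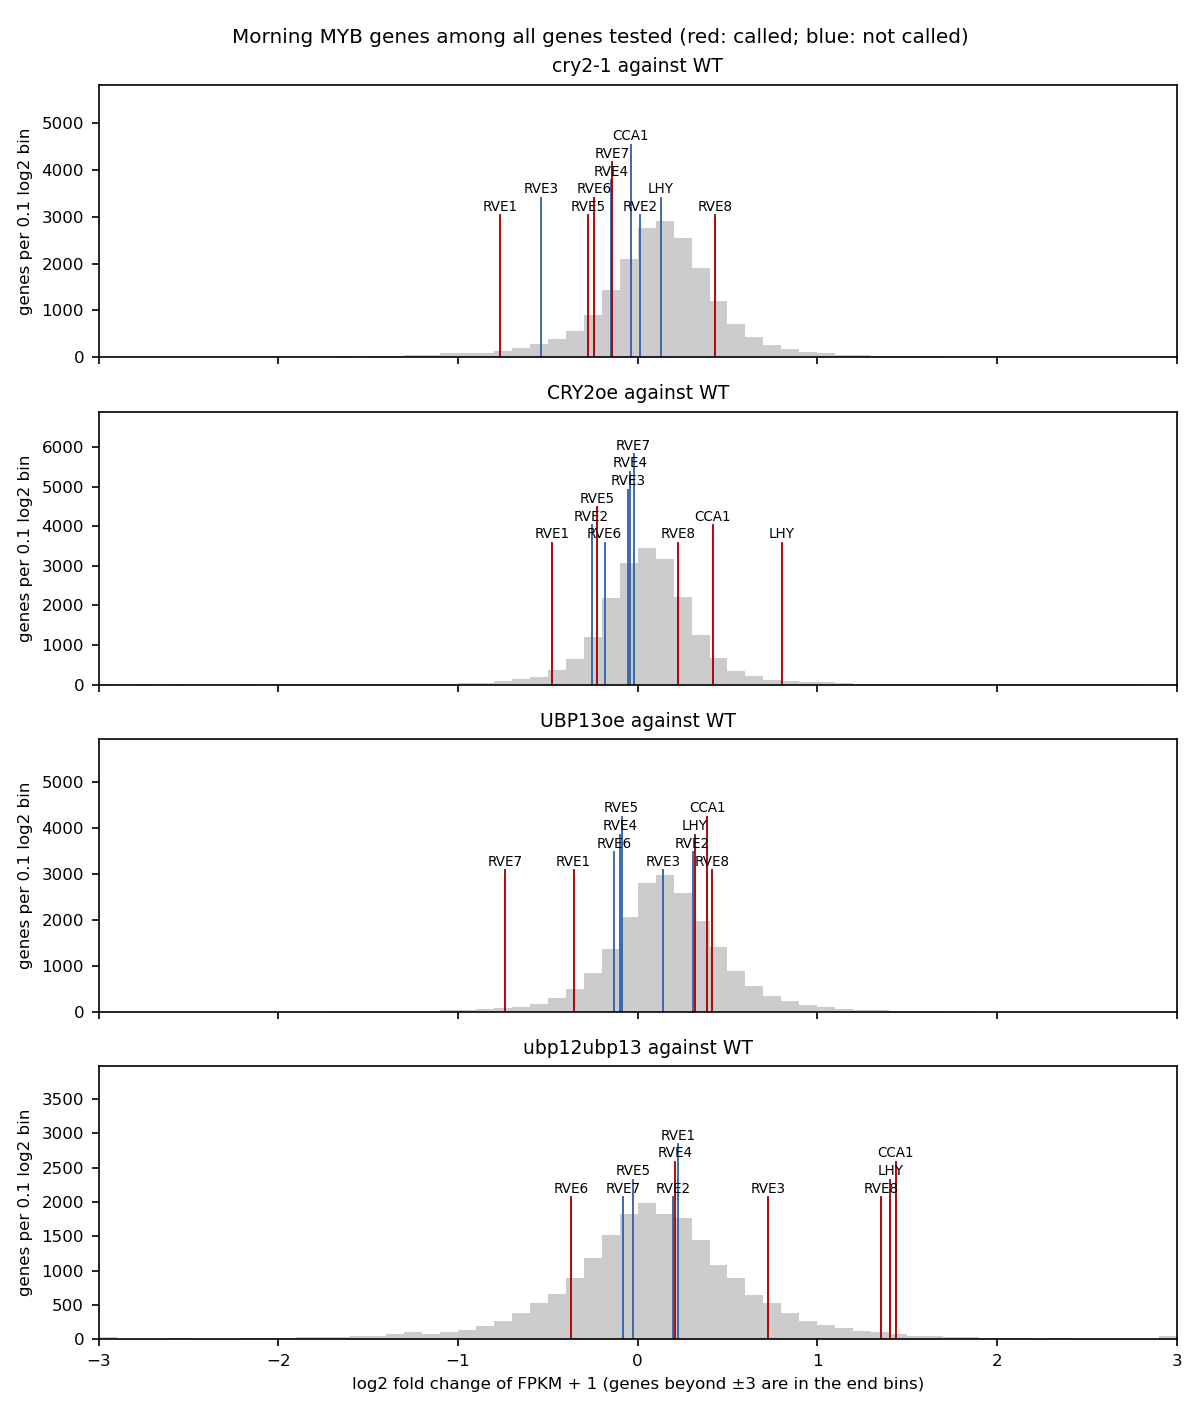
Number of genes in bins of 0.1 of the log2 fold change (grey bars), with the 10 genes as vertical lines, red where called and blue where not, in 4 panels for the comparisons against WT. Line heights only make room for labels. CCA1, LHY and RVE8 lie to the right of nearly all genes in ubp12ubp13, and RVE7 lies to the left of all but 1.57% of genes in UBP13oe.

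The order of levels differed between genes. For CCA1 it was ubp12ubp13, CRY2oe, UBP13oe, WT and cry2-1 from high to low by the means, with overlapping libraries between CRY2oe and UBP13oe and between WT and cry2-1. For LHY it was ubp12ubp13, CRY2oe, UBP13oe, cry2-1 and WT, and only cry2-1 and WT overlapped. After rescaling, LHY was at log2 changes against WT of -0.0074 in cry2-1 and 0.17 in UBP13oe, neither called. For RVE8, ubp12ubp13 was followed by cry2-1, UBP13oe, CRY2oe and WT, and only cry2-1 and UBP13oe overlapped. RVE1 ran from ubp12ubp13 over WT, UBP13oe and CRY2oe to cry2-1 with no overlap between neighbours. These orders and overlaps are those of the FPKM as deposited. Rescaled, the change of RVE1 in ubp12ubp13 against WT was log2 0.15 (limma adjusted p = 0.146). To the nuclear total it was log2 0.26 and called (limma adjusted p = 0.0232). The files give RVE1 and RVE2 a value above their own upper confidence bound in all 10 libraries, as they do for 3779 to 5875 genes per library, and these bounds were not used.

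CRY2oe and cry2-1, which differ in CRY2 level in opposite directions from WT, were also compared with each other. This difference does not use the WT means, although the WT libraries enter the shared estimate of spread. LHY was higher in CRY2oe (31.0 and 31.3 FPKM) than in cry2-1 (18.8 and 19.5 FPKM), a log2 difference of 0.67 ± 0.10 (limma adjusted p = 0.00101). CCA1 had 23.7 and 24.8 FPKM in CRY2oe, against 18.2 and 16.6 FPKM in cry2-1 (log2 0.46 ± 0.06, limma adjusted p = 0.000699). RVE1 had 32.7 and 33.2 FPKM in CRY2oe, against 28.2 and 25.3 FPKM in cry2-1 (log2 0.29 ± 0.09, limma adjusted p = 0.0297), both genotypes being below WT. RVE8 was lower in CRY2oe (20.9 and 20.5 FPKM) than in cry2-1 (24.5 and 23.5 FPKM), a log2 difference of -0.20 ± 0.07 (limma adjusted p = 0.0439). So 4 of the 10 genes were called, near the share of all genes that were (37.4%), with 3 higher in CRY2oe, against 13.5% of all genes, and 1 lower, against 24.0%. Rescaled, 5 were higher, against 17.7% of all genes, and 0 lower, against 16.7%. The RVE8 call was lost after rescaling (limma adjusted p = 0.161) and without any single library outside WT (8 of 10, up to 0.185). The RVE1 call was lost without cry2-1 replicate 2 (log2 0.22, limma adjusted p = 0.167) or CRY2oe replicate 1 (0.0929) or 2 (0.114). RVE3 was called without CRY2oe replicate 2 (log2 0.79, limma adjusted p = 0.0182), and RVE4 and RVE7 were called higher after rescaling (0.0358 and 0.0158).

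The libraries labelled ubp12ubp13 were also set directly against UBP13oe. CCA1 was higher in ubp12ubp13 by 1.05 ± 0.06, LHY by 1.09 ± 0.10 and RVE8 by 0.94 ± 0.07 on the log2 scale (limma adjusted p = 7.101e-06, 4.768e-05 and 1.719e-05). RVE7 had 30.0 and 31.1 FPKM in ubp12ubp13, against 19.4 and 18.6 FPKM in UBP13oe (log2 0.66 ± 0.05, limma adjusted p = 1.876e-05). RVE1 had 50.8 and 57.9 FPKM in ubp12ubp13, against 35.9 and 35.8 FPKM in UBP13oe (log2 0.58 ± 0.09, limma adjusted p = 0.000729). RVE4 and RVE3 were also higher (log2 0.31 and 0.59, limma adjusted p = 0.00274 and 0.042) and RVE6 was lower (log2 -0.24, limma adjusted p = 0.0215). In this comparison 8 of the 10 genes were called, against 52.9% of all genes, with 7 higher in ubp12ubp13, against 20.8% of all genes, and 1 lower, against 32.1%. Rescaled, 7 were higher, against 26.1% of all genes, and 0 lower, against 26.2%. The median difference of the 10 genes was 0.58, against -0.06 for all genes. CCA1, LHY and RVE8 were called higher than WT in both genotypes, but the LHY call in UBP13oe was lost after rescaling (log2 0.17, limma adjusted p = 0.236). RVE1 stood above both WT libraries in ubp12ubp13, without a call (limma adjusted p = 0.0532, rescaled log2 0.15), and below both in UBP13oe. Rescaled to the nuclear total, RVE1 was called higher than WT in ubp12ubp13 (log2 0.26, limma adjusted p = 0.0232). The RVE6 call was lost after rescaling (limma adjusted p = 0.0682) and without UBP13oe replicate 2 (0.125) or ubp12ubp13 replicate 1 (0.0811) or 2 (0.0574). For RVE3 the call was lost without any single library other than the CRY2oe libraries and UBP13oe replicate 2 (7 of 10, up to 0.224). RVE2 was called lower without ubp12ubp13 replicate 2 (log2 -0.32, limma adjusted p = 0.0492), against 0.10 without replicate 1.

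Genes that act with or on these factors were followed in 5 lists of 26 clock genes, all of which were tested. In the libraries labelled ubp12ubp13, 4 of the 26 were higher and 18 lower, also after rescaling (5 and 17 to the nuclear total). The 26 genes had a median log2 change of -0.35, against 0.09 for all genes. Of all genes, 34.6% were higher and 22.2% lower there (29.3% and 27.1% rescaled). The evening complex genes and GI were lower in 5 of 5 cases, led by BOA, a relative of LUX (15.3 and 14.9 FPKM in ubp12ubp13, against 34.9 and 38.3 FPKM in WT, log2 -1.22, limma adjusted p = 1.17e-06), LUX (log2 -0.93) and ELF4 (log2 -0.88). Of the 5 TOC1 and PRR genes, 4 were lower and 1 higher. TOC1 had 49.1 and 48.9 FPKM in ubp12ubp13, against 98.1 and 105 FPKM in WT (log2 -1.04, limma adjusted p = 1.17e-06), PRR7 fell by 0.60 and PRR3 fell by 0.42 on the log2 scale. The LNK coactivators of RVE8 were higher in 3 of 4 cases. LNK2 had 139 and 129 FPKM in ubp12ubp13, against 60.9 and 62.8 FPKM in WT (log2 1.099, limma adjusted p = 3.678e-06), with LNK3 at a log2 change of 1.28 and LNK1 at 0.68.

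Of 7 regulators known to act at the CCA1 promoter, 5 were lower in ubp12ubp13 and 0 higher. CHE, the TCP factor that represses CCA1, had 58.0 and 49.5 FPKM in ubp12ubp13, against 71.3 and 65.7 FPKM in WT (log2 -0.35, limma adjusted p = 0.00388). The activators LWD1 and FHY3 fell by 0.38 and fell by 0.34 on the log2 scale. The F-box genes FKF1, LKP2 and ZTL, whose proteins sense blue light and target clock proteins, were lower (log2 -1.02, -0.51 and -0.50), as were 4 of 5 in that list, which also holds CK2 subunit genes.

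In cry2-1, 2 of the 26 clock genes were higher and 10 lower (1 and 16 rescaled). Of all genes, 31.7% were higher and 11.8% lower (17.1% and 19.9% rescaled). The count depended on the way of rescaling. To the nuclear total, 5 of the 26 were higher, 3 of them LNK genes, and 10 lower. All genes then had a median log2 change of 0.15. TOC1 had 52.5 and 51.6 FPKM in cry2-1, against 98.1 and 105 FPKM in WT (log2 -0.95, limma adjusted p = 6.108e-06). CCA1 was not called there (log2 -0.04, and -0.18 rescaled with limma adjusted p = 0.0539), and a link between these genes was not tested. ELF4 had 42.5 and 41.4 FPKM in cry2-1, against 105 and 107 FPKM in WT (log2 -1.32, limma adjusted p = 4.322e-06). In the same list BOA fell by 0.29 and LUX fell by 0.23 on the log2 scale. PRR9 fell to 1.08 and 0.859 FPKM in cry2-1, against 2.09 and 2.20 FPKM in WT (log2 -0.68, limma adjusted p = 0.00286), and PRR5 fell by 0.52 on the log2 scale. LNK3 was higher (log2 0.43, limma adjusted p = 0.00182). FKF1 had 5.80 and 5.09 FPKM in cry2-1, against 17.5 and 17.0 FPKM in WT (log2 -1.503, limma adjusted p = 6.867e-06), and LKP2 fell by 0.47 on the log2 scale. None of the 7 regulators at the CCA1 promoter was called in cry2-1 by limma. After rescaling by the median of ratios 4 were lower, but 0 after rescaling to the nuclear total. ZTL had 27.6 and 28.0 FPKM in cry2-1, against 49.1 and 53.7 FPKM in WT (log2 -0.86, limma adjusted p = 1.862e-05).

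In CRY2oe, 5 of the 26 were higher and 3 lower (5 and 5 rescaled), against 16.5% and 9.63% of all genes (11.4% and 14.3% rescaled). To the nuclear total the counts were 5 and 3. The PRR genes account for 4 of the 5. PRR5 had 23.2 and 22.8 FPKM in CRY2oe, against 15.3 and 16.0 FPKM in WT (log2 0.52, limma adjusted p = 0.00204), with PRR7 at a log2 change of 0.46 and PRR3 at 0.34. LNK2 had 89.4 and 78.9 FPKM in CRY2oe, against 60.9 and 62.8 FPKM in WT (log2 0.44, limma adjusted p = 0.00278). BOA, LKP2 and ZTL were lower (log2 -0.20, -0.29 and -0.20). The calls of PRR3, BOA and ZTL were lost without WT replicate 2 or either CRY2oe library (limma adjusted p of 0.0784 to 0.152), and the count of clock genes called, 8 with all libraries, was 4 without either CRY2oe library and 5 without WT replicate 2.

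In UBP13oe, 2 of the 26 were higher and 10 lower (0 and 16 rescaled), against 35.2% and 8.74% of all genes (18.8% and 18.0% rescaled). Rescaled to the nuclear total, 0 of the 26 were higher and 11 lower. TOC1 had 74.1 and 76.6 FPKM in UBP13oe, against 98.1 and 105 FPKM in WT (log2 -0.43, limma adjusted p = 0.000344). BOA fell by 0.49, LUX fell by 0.26, ELF4 fell by 0.30, PRR7 fell by 0.38 and LWD1 fell by 0.41 on the log2 scale. The F-box genes were lower as well (log2 -0.44 for ZTL, -0.45 for FKF1 and -0.36 for LKP2). The 2 higher genes were PRR3 (9.39 and 9.95 FPKM in UBP13oe, against 8.07 and 7.48 FPKM in WT, log2 0.28, limma adjusted p = 0.0245) and FHY3 (27.1 and 28.4 FPKM in UBP13oe, against 25.1 and 25.4 FPKM in WT, log2 0.13, limma adjusted p = 0.0414). The PRR3 call was lost after rescaling (limma adjusted p = 0.219) and without WT replicate 2 (0.111) or UBP13oe replicate 1 (0.0554) or 2 (0.126). FHY3 had a log2 change of -0.02 after rescaling, and its call was lost without any single library outside ubp12ubp13 (8 of 10, limma adjusted p up to 0.216). Of the LNK genes, none of the 4 was called there by limma (2 lower after rescaling by the median of ratios, 0 to the nuclear total).

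**Figure D4:**
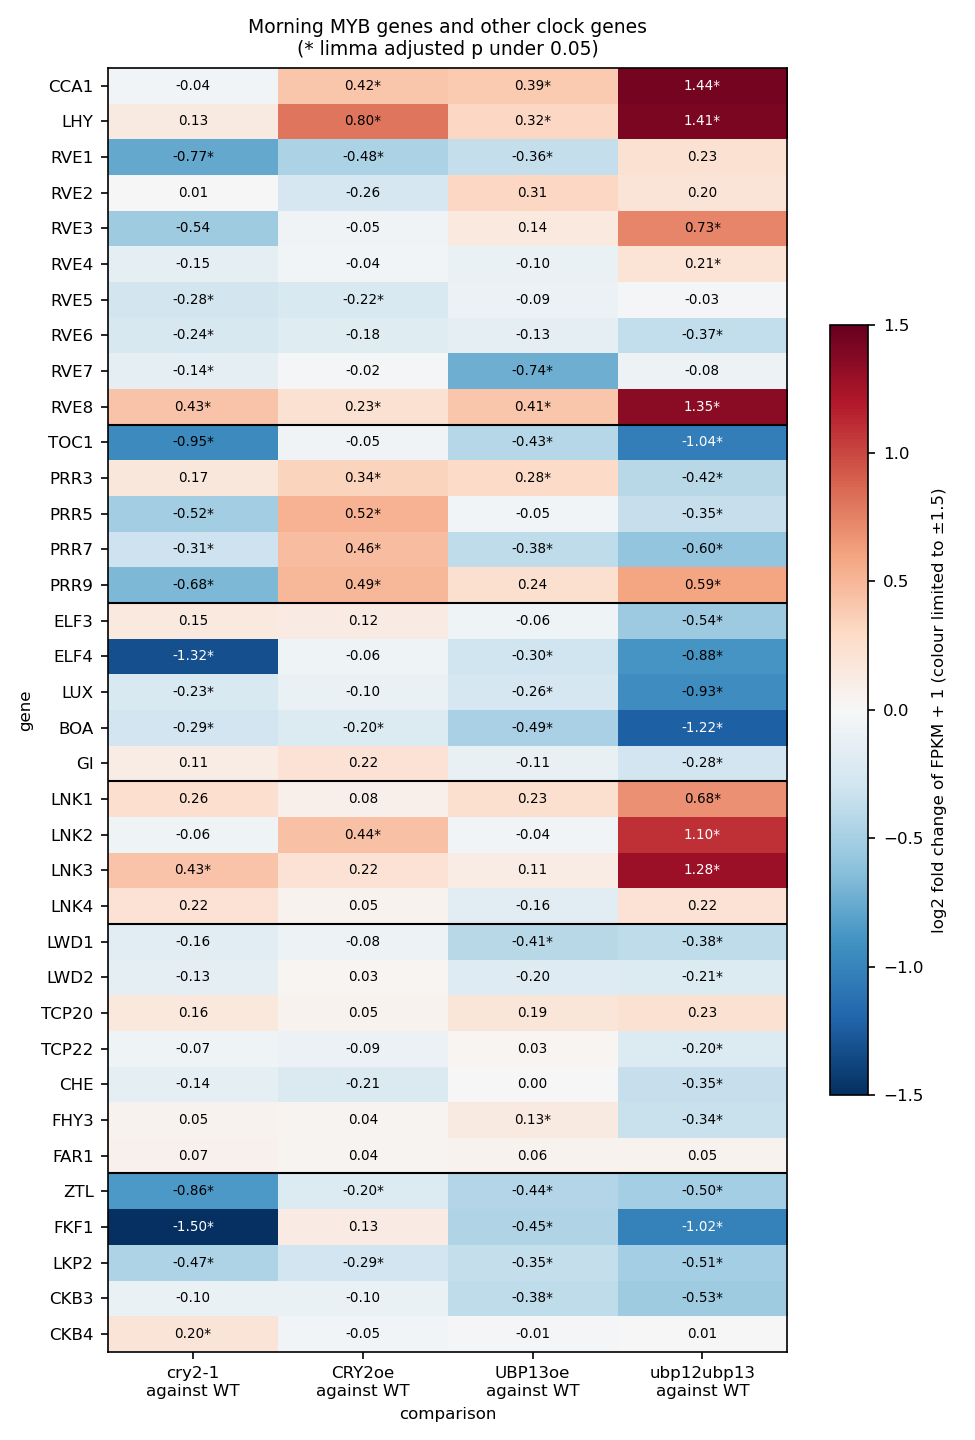
Log2 fold change of FPKM + 1 against WT for the 10 genes (upper block) and 26 other clock genes in 5 lists (lower blocks), with an asterisk at a limma adjusted p under 0.05 and colour limited to ±1.5. In ubp12ubp13 the blocks of evening complex genes and of LNK genes have opposite signs, and in CRY2oe PRR3, PRR5, PRR7 and PRR9 share a sign with CCA1 and LHY.

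For each member whose genotype means spanned 1 or more on the log2 scale (CCA1 1.48, LHY 1.41, RVE8 1.35 and RVE3 1.26), the 2 genes with the most similar pattern over the 10 libraries were taken from 14381 nuclear genes. Likeness was the root-mean-square difference of the centred log2 values. For CCA1 these were AT4G25290 (0.0822) and the starch synthase gene SS3 (0.0896). SS3 had 29.1 and 30.1 FPKM in ubp12ubp13, against 12.1 and 12.1 FPKM in WT. For LHY they were AT5G35970 (0.101) and AT5G22440 (0.134), for RVE8 AT5G19730 (0.0907) and MCA2 (0.0969), and for RVE3 AT2G28605 (0.146) and AT1G72270 (0.152). None of these genes is a member.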

How the data were processed

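Poly(A) RNA of whole seedlings was sequenced in 10 libraries. Per the submitters' processing notes, the authors used STAR (no version stated), Cufflinks 2.1.1 and the TAIR10 genome. The deposited values are FPKM per gene, estimated by the authors, and per the labels' protocols the library kit was directional, while no source used here gives the strand setting of the counting. The 15 entries marked as failed or skipped, at 10 loci, were treated as missing. None was a member.

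FPKM are not counts, so values were tested as log2(FPKM + 1) in limma 3.58.1 (R 4.3.3), two-sided, with an intensity trend, a mean per genotype over all 10 libraries and Benjamini-Hochberg adjustment over all genes within each of 6 comparisons. Genes had to reach 1 FPKM in at least 2 libraries. The fit had 5 residual and 3.15 prior degrees of freedom and was tested on simulated data. Depth was estimated from the steps between low values of 3029 genes without introns, of which 88.8% to 94.8% of values came out whole within 0.1 fragment. It bears most on RVE3, the lowest member. Of the genes in the files, 32810 matched the RefSeq TAIR10.1 annotation, which gave the promoters. Near-identical loci were searched with BLAST 2.17.0. Other steps were run in Python 3.11.15 (pandas 2.3.3, numpy 2.4.6, matplotlib 3.10.9 and scipy 1.17.1).

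The members and gene lists were chosen with earlier results of these data known. Named genes were the 10 members, from each list and comparison up to 3 called genes with the smallest adjusted p (given for the comparisons against WT), and for each member whose genotype means spanned 1 or more on the log2 scale, the 2 genes with the most similar pattern. The other list genes are given by counts. Other settings tried were no filter on low values, a filter at a mean of 5 FPKM, a pseudocount of 0.1, rescaling by the median of ratios or to the nuclear total, only the 4 libraries compared, no variance trend, failed entries as listed, a replicate block, and each library left out in turn, which leaves a genotype with 1 library that is then assumed to vary like the others. The labels call the replicates biological, without naming separate cultures. The p-values therefore measure the spread between these libraries, which may be technical.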

Additional observations from a re-analysis of the deposited data

How the results depend on the processing

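Of the 60 member results, each recomputed under 19 alternatives where it could be, 1000 values kept their direction and their side of the threshold, 89 lost a call, 28 gained one and 17 changed sign. None of the sign changes was in a called result. CCA1, LHY and RVE8 kept their calls in ubp12ubp13 under every alternative, as did RVE7 in UBP13oe and RVE1 in cry2-1. The cause of the changes was not tested.

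Rescaling by the median of ratios turned LHY (-0.0074) and RVE2 (-0.13) in cry2-1, and the listed gene FHY3 in UBP13oe (-0.0197, against 0.13). Nuclear rescaling turned RVE5 in ubp12ubp13 (0.0019) and YUC8 in CRY2oe (6e-04), which was not called. It added calls for RVE1 in ubp12ubp13 (log2 0.26, limma adjusted p = 0.0232) and RVE4 in UBP13oe (-0.16, 0.0415). Calls were lost there for LHY in UBP13oe (limma adjusted p = 0.0828), RVE7 in cry2-1 (0.0873), RVE6 in ubp12ubp13 against UBP13oe (0.0846) and YUC8 in ubp12ubp13 (0.0527). The calls of the listed genes PRR3 and FHY3 in UBP13oe were also lost (limma adjusted p = 0.0684 and 0.229). Rescaling also moved the split of all genes, to 3406 higher and 3958 lower in cry2-1 (6331 and 2363 as deposited), 2277 and 2857 in CRY2oe (3302 and 1922), 3758 and 3595 in UBP13oe (7023 and 1744), 5838 and 5398 in ubp12ubp13 (6905 and 4439), 3535 and 3335 in CRY2oe against cry2-1 (2685 and 4785) and 5203 and 5220 in ubp12ubp13 against UBP13oe (4158 and 6403).

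Leaving out each library in turn gave 2 to 6 members called in cry2-1 (3 or fewer without WT replicate 2 or either cry2-1 library), 3 to 4 in CRY2oe, 3 to 6 in UBP13oe (3 without WT replicate 2 or UBP13oe replicate 2), 4 to 7 in ubp12ubp13 and 2 to 4 in CRY2oe against cry2-1 (2 without cry2-1 replicate 2 or CRY2oe replicate 1). All genes called ranged over 2144 to 5131 in CRY2oe (5224 with all libraries), lowest without CRY2oe replicate 2 and at 2660 without replicate 1, and over 5593 to 8805 in UBP13oe, lowest without UBP13oe replicate 2. The other clock genes called in CRY2oe ranged over 4 to 10. Changes that turned were, in cry2-1, CCA1 (-0.10 to 0.0217), LHY (-0.0378 to 0.30) and RVE2 (-0.0912 to 0.11), in CRY2oe, RVE3 (-0.36 to 0.26), RVE4 (-0.12 to 0.0417), RVE7 (-0.0506 to 0.006) and YUC8 (-0.12 to 0.10), and in UBP13oe, RVE3 (-0.0433 to 0.33). In ubp12ubp13 they were RVE2 (-0.0154 to 0.41) and RVE5 (-0.059 to 0.0071), in CRY2oe against cry2-1 RVE5 (-0.0153 to 0.12) and RVE6 (-0.0115 to 0.12), and in ubp12ubp13 against UBP13oe RVE2 (-0.32 to 0.10).

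In CRY2oe the count of members called was 3 with no filter, 3 with only the 4 libraries compared and 3 with the replicate block, and in CRY2oe against cry2-1 it was 2 with no filter. With only the 4 libraries compared, 2194 of all genes and 4 of the other clock genes were called in CRY2oe. Deviations of same-numbered libraries correlated at -0.09 to 0.15 over the 10 pairs of genotypes, so no strong effect shared by replicate number was seen. These correlations cannot show whether same-numbered libraries were handled together. The block lowered the count of all genes called by less than a factor of 1.5 in each of the 6 comparisons. It changed no member's call beyond RVE7 in cry2-1 (adjusted p = 0.0581), RVE5 and RVE8 in CRY2oe (0.0559 and 0.0523), RVE2 in UBP13oe (0.0475), RVE8 in CRY2oe against cry2-1 (0.0565) and RVE3 in ubp12ubp13 against UBP13oe (0.0588), all from limma. Depth limits RVE3 most, at 0.732 to 3.56 FPKM.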

Other observations

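Genes known as clock outputs or targets of the morning MYB factors were followed as a list of 8, chosen with earlier results of these data known. In the libraries labelled ubp12ubp13, 2 were higher and 4 lower (also rescaled), against 34.6% and 22.2% of all genes (29.3% and 27.1% rescaled). To the nuclear total, 3 were higher and 3 lower. LHCB1.1, which encodes a light-harvesting protein from the gene family whose promoters CCA1 is known to bind, had 3828 and 3244 FPKM in ubp12ubp13, against 1012 and 702 FPKM in WT (log2 2.06, limma adjusted p = 2.141e-05). Its family members are nearly identical, so its level is uncertain. CAT3, an evening-phased catalase gene, fell to 900 and 798 FPKM in ubp12ubp13, against 1842 and 1861 FPKM in WT (log2 -1.13, limma adjusted p = 8.69e-06). GRP7, which encodes a clock-controlled RNA-binding protein, fell to 1570 and 1450 FPKM in ubp12ubp13, against 2229 and 2273 FPKM in WT (log2 -0.58, limma adjusted p = 0.000226).

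In cry2-1, 1 of the 8 was higher and 4 were lower (also rescaled), against 31.7% and 11.8% of all genes (17.1% and 19.9% rescaled). PORA, the protochlorophyllide reductase gene that is abundant in dark-grown seedlings and is linked to RVE1, had 154 and 155 FPKM in cry2-1, against 4.30 and 1.58 FPKM in WT (log2 5.40, limma adjusted p = 0.000121). RVE1 was at its lowest in the same libraries, at 28.2 and 25.3 FPKM, and neither a link between these 2 changes nor its direction was tested. GRP7 had 1171 and 1120 FPKM in cry2-1, against 2229 and 2273 FPKM in WT (log2 -0.97, limma adjusted p = 4.176e-05), and CAT2, a morning-phased catalase gene, fell by 0.70 on the log2 scale. In CRY2oe, 1 was higher (LHCB1.1, log2 0.82) and 3 were lower, among them CAT3 and CDF1 (log2 -0.42 and -0.45). The counts were the same rescaled, against 16.5% of all genes higher and 9.63% lower (11.4% and 14.3% rescaled). The calls of CAT3 and CDF1 were lost without CRY2oe replicate 2 (limma adjusted p = 0.0509 and 0.0633) and that of LHCB1.1 without replicate 1 (0.0618). In UBP13oe, 0 were higher and 2 lower (0 and 4 rescaled), against 35.2% and 8.74% of all genes (18.8% and 18.0% rescaled). YUC8, the auxin synthesis gene that RVE1 is known to activate, had 11.2 and 9.97 FPKM in UBP13oe, against 14.9 and 14.9 FPKM in WT (log2 -0.46, limma adjusted p = 0.0207), a call lost without either WT library (adjusted p of 0.0661 and 0.0677) or UBP13oe replicate 2 (0.116). YUC8 was also lower in ubp12ubp13, at 13.1 and 9.69 FPKM (log2 -0.37, limma adjusted p = 0.0364), where RVE1 was above both WT libraries but not called. That call was lost without either WT library, either cry2-1 library or ubp12ubp13 replicate 2 (limma adjusted p up to 0.214). It was not called in cry2-1, at 17.3 and 17.5 FPKM (log2 0.21, limma adjusted p = 0.219), or in CRY2oe, at 16.1 and 13.7 FPKM (limma adjusted p = 0.980). These 3 comparisons of YUC8 lie outside the rule for named genes and were chosen after their values were seen. CAT2 was also lower in UBP13oe (log2 -0.23, limma adjusted p = 0.0348), and its call was lost without WT replicate 2, UBP13oe replicate 2 or either cry2-1 library (limma adjusted p up to 0.200).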
